A study of Arabidopsis thaliana with 12 samples.

Results

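*GolS1* (AT2G47180), a galactinol synthase gene on chromosome 2, and *AGAL1* (AT5G08380), an alpha-galactosidase gene on chromosome 5, were followed over 12 arrays of nearly ripe Arabidopsis siliques. These 2 genes were chosen by their higher intensity in *hub1-2* siliques than in wild-type L*er*, and each is measured by 1 probe set. Both belong to the 14666 probe sets kept for testing of the 22810 on the array. Since the *hub1-2* and L*er* arrays chose them, their differences between *hub1-2* and the other genotypes are given as descriptions, without a test. Both are linked to their probe sets only by the probe and gene pairs that the study listed for genes called on these arrays.

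Whole siliques, with seeds and fruit wall together, were harvested 18 to 19 days after pollination, and RNA of 3 independent biological replicates per genotype was hybridized to Affymetrix ATH1 arrays. The genotypes are *hub1-2*, whose arrays are labelled with the older name *rdo4*, *rdo2-1* (labelled *rdo2*), *rdo3* and wild-type L*er*. Each of the mutants is represented by 1 allele. *HUB1* encodes an E3 ligase for histone H2B, *RDO2* encodes the transcription elongation factor TFIIS, and *hub1-2* and *rdo2-1* seeds are less dormant than wild-type seeds. Both mutants are in the L*er* background and came from a screen whose mutants were named *rdo*, for reduced dormancy. The study does not describe *rdo3* itself. The values are GC-RMA intensities in arbitrary units on a linear scale. In such whole-organ RNA, fewer cells of a type and less RNA per cell cannot be told apart.

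Galactinol synthase makes galactinol from UDP-galactose and *myo*-inositol, the first committed step toward the raffinose family of oligosaccharides. Raffinose and stachyose synthases then move galactose from galactinol onto sucrose and raffinose, and alpha-galactosidases take the galactose off again. In seeds these sugars build up late in maturation, when the embryo dries, and are broken down during germination.

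*GolS1* was highest in *hub1-2*. Its intensities were 3619, 3234 and 3151 in *hub1-2*, 2186, 2329 and 1431 in *rdo2-1*, 2273, 2008 and 2211 in *rdo3*, and 2125, 2149 and 1807 in L*er*. All 3 *hub1-2* arrays lay above the other 9, and the other genotypes overlapped each other. The mean was 3335 ± 249.7 in *hub1-2*, 1982 ± 483 in *rdo2-1*, 2164 ± 139 in *rdo3* and 2027 ± 191 in L*er* (SD, n = 3 each). As a description, *hub1-2* differed from L*er* by 0.72 on the log2 scale (standard error 0.10), which is 1.65-fold. It differed from *rdo2-1* by 0.78 (standard error 0.17) and from *rdo3* by 0.62 (standard error 0.08). In order of level came *hub1-2*, *rdo3*, L*er* and *rdo2-1*, and the last 3 did not differ beyond their spread. The coefficient of variation was 7.49% in *hub1-2* and 24.3% in *rdo2-1*, where replicate 3 was the lowest of all 12 arrays.

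*AGAL1* had a different pattern, with an appreciable signal in *hub1-2* siliques and values near the bottom of the scale elsewhere. Its intensities were 89.4, 46.9 and 61.4 in *hub1-2*, 8.05, 8.57 and 8.15 in *rdo2-1*, 7.56, 8.33 and 6.06 in *rdo3*, and 8.60, 8.55 and 8.92 in L*er*. The lowest *hub1-2* array was well above the highest array of any other genotype. The means were 65.9 ± 21.6 in *hub1-2*, 8.26 ± 0.278 in *rdo2-1*, 7.32 ± 1.16 in *rdo3* and 8.69 ± 0.204 in L*er* (SD, n = 3 each). The difference was 2.87 on the log2 scale between *hub1-2* and L*er* (standard error 0.23), or 7.32-fold, 2.95 between *hub1-2* and *rdo2-1* (standard error 0.23), and 3.13 between *hub1-2* and *rdo3* (standard error 0.24).

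The size of these *AGAL1* differences is uncertain, because the median intensity of all probe sets was between 11.6 and 12.1 on the 12 arrays. *AGAL1* stood at 3.96 to 7.5 times this median on the *hub1-2* arrays. On the 9 other arrays it was at 0.516 to 0.741 times the median, where a signal above background was not shown. With the array median in place of these low values, the geometric mean of *AGAL1* in *hub1-2* was at least 5.32-fold higher than in L*er*, at least 5.44-fold higher than in *rdo2-1* and at least 5.35-fold higher than in *rdo3*. *GolS1* was 121 to 303 times the median over the 12 arrays, so the same limit does not touch it. The *hub1-2* arrays differed among themselves more for *AGAL1* than for *GolS1*, with coefficients of variation of 32.8% and 7.49%. The highest *hub1-2* array was replicate 1 for both genes.

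**Figure D1:**
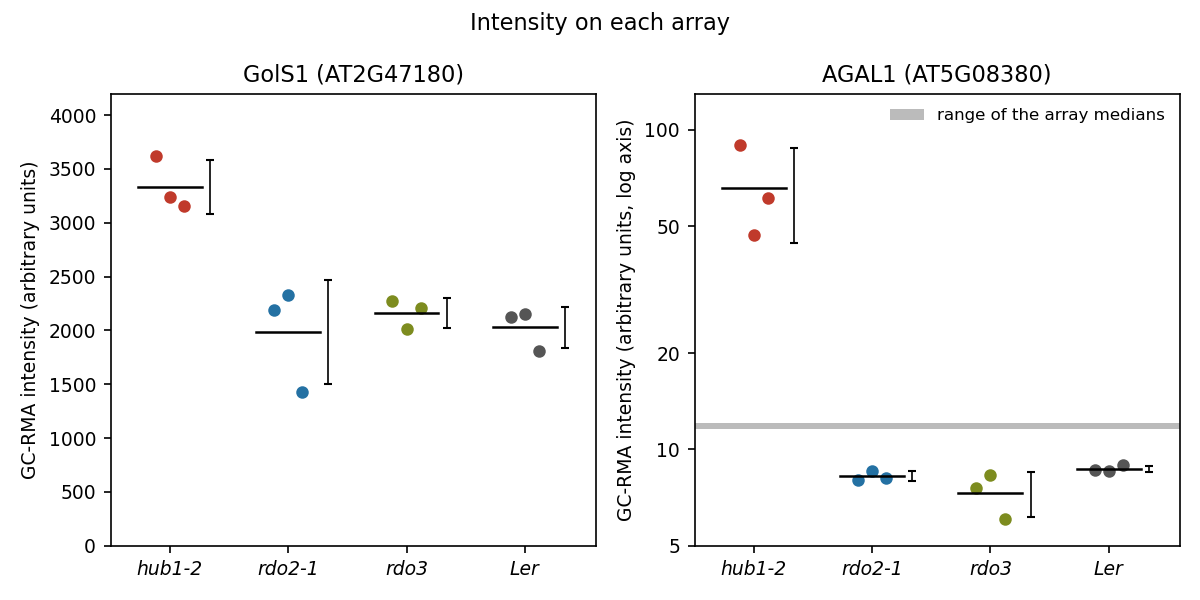
Intensity of *GolS1* and *AGAL1* (arbitrary units) on each of the 12 arrays by genotype, with points for arrays, a horizontal line for the mean and a bar for ± 1 SD (n = 3); the grey band in the *AGAL1* panel, which has a log axis, is the range of array medians, 11.6 to 12.1. The *hub1-2* points sit at 3151 or more for *GolS1* and at 46.9 or more for *AGAL1*, above all other arrays.

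Separation of the *hub1-2* arrays from those of another genotype was common on these arrays. All *hub1-2* arrays lay above all L*er* arrays for 24.4% of the kept probe sets and below them for 18.6%. They lay above all *rdo2-1* arrays for 29.1% and above all *rdo3* arrays for 24.6%. Since these arrays chose *GolS1* and *AGAL1*, nothing is read from their place in these shares.

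Neither gene was called in the comparisons that do not involve *hub1-2*. log2 intensities were compared in limma over the 6 arrays of each pair of genotypes, and calls are Benjamini-Hochberg adjusted p-values under 0.01. limma called 0.143% of all kept probe sets between *rdo2-1* and L*er*, 0.0205% between *rdo3* and L*er* and 0.252% between *rdo3* and *rdo2-1*. CyberT, the test of the study's methods, called 3.38%, 1.01% and 2.81% in the same order and neither gene among them. The comparisons with L*er* share the L*er* arrays that helped to choose the genes.

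For *GolS1*, *rdo2-1* and L*er* differed by -0.06 on the log2 scale (standard error 0.18, 95% interval -0.46 to 0.34, limma adjusted p = 0.88). The sign of this difference rests on 1 array, since without *rdo2-1* replicate 3 it was 0.16. *rdo3* and L*er* differed by 0.10 (standard error 0.10, 95% interval -0.13 to 0.33, limma adjusted p = 0.78), and *rdo3* and *rdo2-1* by 0.16 (standard error 0.17, 95% interval -0.23 to 0.55, limma adjusted p = 0.64). Without *rdo2-1* replicate 3 the last of these was -0.06.

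For *AGAL1*, *rdo2-1* and L*er* differed by -0.07 (standard error 0.12, 95% interval -0.35 to 0.20, limma adjusted p = 0.77). *rdo3* and L*er* differed by -0.26 (standard error 0.14, 95% interval -0.57 to 0.05). All 3 *rdo3* arrays lay below all L*er* arrays, as they did for 7.42% of all kept probe sets, and the limma adjusted p was 0.55. *rdo3* and *rdo2-1* differed by -0.19 (standard error 0.14, 95% interval -0.50 to 0.13, limma adjusted p = 0.49). All these values are under the array median, so these intervals describe the reading of the probe set near background.

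**Figure D2:**
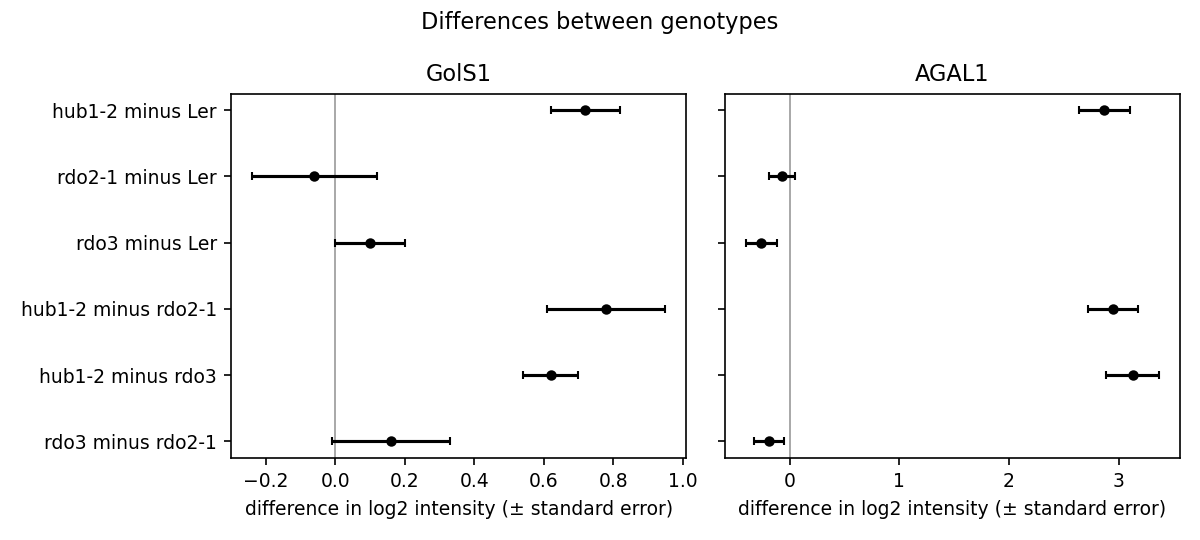
Differences in log2 intensity between pairs of genotypes for *GolS1* and *AGAL1*, with bars for ± 1 standard error; 6 arrays per pair. The 3 differences with *hub1-2* lie between 0.62 and 0.78 for *GolS1* and between 2.87 and 3.13 for *AGAL1*, and the differences among *rdo2-1*, *rdo3* and L*er* lie between -0.26 and 0.16.

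Markers of the silique's tissues differed between the genotypes. The summed intensity of *SESA1*, *SESA2* and *SESA4*, the 3 of 10 listed seed markers with a name, was 73065 to 87063 in *hub1-2*, 96714 to 101593 in *rdo2-1*, 82561 to 87419.7 in *rdo3* and 77229.6 to 86379.5 in L*er*. For *RCA* and *PSAD1*, 2 of 6 photosynthesis markers of the wall, the sum was 3026 to 4038 in *hub1-2*, 4775 to 7016 in *rdo2-1*, 4201 to 5249 in *rdo3* and 4783 to 7183 in L*er*. For *SHP2*, *ALC* and *ADPG1*, 3 of 5 markers of the wall's dehiscence zone, it was 9716 to 11574 in *hub1-2*, 15264 to 16804 in *rdo2-1*, 12303 to 13573 in *rdo3* and 12159 to 14123 in L*er*. Both wall sums were lower on every *hub1-2* array than on any other array, and their part in the differences of *GolS1*, *AGAL1* and the listed genes was not tested. *RCA* and *ADPG1* make up most of these sums. *RCA*, *SHP2*, *ALC* and *ADPG1* each separated in the same way, while *PSAD1* overlapped (186 to 377 in *hub1-2*, 361 to 693 in L*er*). The seed marker *SESA1* also had its lowest values in *hub1-2*, at 26341 to 27916 against 30605 to 31144 in L*er*. Its difference was -0.2 (standard error 0.04, limma adjusted p = 0.0091, CyberT adjusted p = 0.024). *SESA2* and *SESA4* overlapped L*er* (difference -0.01 each). A downward separation of *hub1-2* from L*er* alone was found for 18.6% of the kept probe sets. *BAN*, 1 of 4 seed coat markers, was between 4.85 and 6.76 on all arrays, under the array median. *HUB1* averaged 180.5 ± 27.7 in *hub1-2*, 41.3 ± 6.22 in *rdo2-1*, 62.4 ± 20.2 in *rdo3* and 78.5 ± 9.73 in L*er* (SD, n = 3 each), so the transcript was not lost in *hub1-2* and its level cannot serve as a test of that label.

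The surroundings of both genes in the pathway were read from a list of 74 other genes, which covers galactinol, raffinose and stachyose synthases, galactosidases, the supply of *myo*-inositol, UDP-galactose and sucrose, and regulators of galactinol synthase genes. Of these, 21 had a kept probe set with a name. The names of 15 of the 21 rest on the study's own list of called genes, so calls are more frequent among them by choice, and their counts are not independent evidence. None of the 6 other galactinol synthase genes has a named probe set among them, and *AGAL2*, the alpha-galactosidase gene next to *AGAL1*, is not analysed here.

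Between *hub1-2* and L*er*, limma called 6 of the 21 genes, 3 higher and 3 lower in *hub1-2*, where it called 9.44% of all kept probe sets, 5.52% higher and 3.92% lower. The calls over all kept probe sets were split otherwise with arrays centred on their medians, at 662 higher and 687 lower in place of 809 and 575. *BGAL16*, 1 of the 6 called genes, passed the filter on low values only through the *hub1-2* arrays. Without it 5 of 20 were called, and 0 of the 5 others that the array annotation names. The median difference over the 21 genes was 0.10, and over all kept probe sets it was 0.02. CyberT called 13, 8 higher and 5 lower, against 17.0% of all kept probe sets, 9.70% higher and 7.30% lower. The count of 6 went down to 3, 2 and 1 without *hub1-2* replicates 1, 2 and 3, and to 2, 4 and 2 without L*er* replicates 1, 2 and 3. Over all kept probe sets the 1384 calls also changed, to 550, 573 and 398 without *hub1-2* replicates 1, 2 and 3, and to 800, 1397 and 869 without L*er* replicates 1, 2 and 3.

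Among the raffinose and stachyose synthase family, *DIN10*, a dark-inducible gene of the raffinose synthase family, rose in *hub1-2*. Its intensities were 667, 606 and 948 in *hub1-2*, 590.4, 500.5 and 574 in *rdo2-1*, 466, 826 and 492 in *rdo3*, and 437, 356 and 357 in L*er*. The *hub1-2* arrays lay above the L*er* arrays (difference 0.93, standard error 0.18, limma adjusted p = 0.0074), and the call was lost when any 1 of the 6 arrays was left out, with adjusted p up to 0.022 over all settings. All *rdo2-1* and *rdo3* arrays of *DIN10* also lay above all L*er* arrays, without a call (differences 0.54 and 0.59, limma adjusted p = 0.089 and 0.39). Those of *rdo3* overlapped *hub1-2*. *RS2*, described as an alkaline alpha-galactosidase that acts on raffinose, had 307, 262 and 550.3 in *hub1-2* and 180.5, 179 and 194 in L*er* (difference 0.94, standard error 0.25, limma adjusted p = 0.026, CyberT adjusted p = 0.0017). *RS2* values in *rdo2-1* (308, 376 and 281) and *rdo3* (193, 541 and 333) overlapped those of *hub1-2*.

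*STS*, the stachyose synthase gene, was distributed otherwise. It had 143, 151 and 202 in *hub1-2*, 44.2, 42.2 and 84.7 in *rdo2-1*, 68.7, 102 and 70.5 in *rdo3*, and 186, 106 and 182 in L*er*. The *hub1-2* and L*er* arrays overlapped (difference 0.10, standard error 0.24, 95% interval -0.45 to 0.64, limma adjusted p = 0.81). All *rdo2-1* and *rdo3* arrays lay below all arrays of *hub1-2* and L*er*.

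2 other genes of the alpha-galactosidase class, *AGAL3* and *APSE*, were measured, and limma called neither between *hub1-2* and L*er*. *AGAL3* averaged 1749 ± 28.5 in *hub1-2*, 1709.7 ± 174 in *rdo2-1*, 1575 ± 115 in *rdo3* and 1742 ± 85.3 in L*er* (SD, n = 3 each). Its difference between *hub1-2* and L*er* was 0.01 (standard error 0.08, 95% interval -0.17 to 0.19, limma adjusted p = 0.96). *APSE*, an enzyme with arabinopyranosidase and alpha-galactosidase activity, averaged 209 ± 15 in *hub1-2*, 176 ± 14.9 in *rdo2-1*, 210 ± 38.5 in *rdo3* and 242 ± 15.7 in L*er*. The *hub1-2* arrays lay below the L*er* arrays (difference -0.21, standard error 0.12, limma adjusted p = 0.26). Whether *AGAL1* differed from these genes in its response was not tested.

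**Figure D3:**
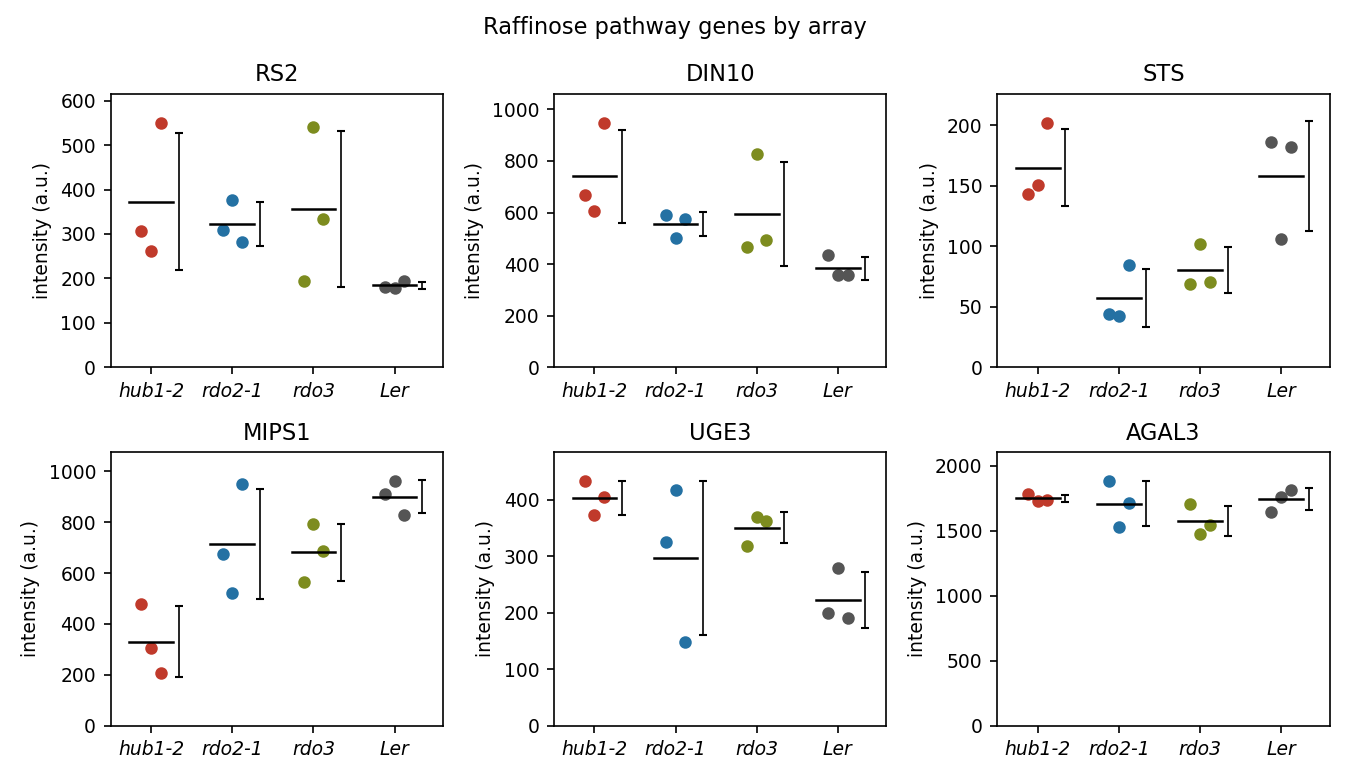
Intensity (arbitrary units) on each of the 12 arrays for *RS2*, *DIN10*, *STS*, *MIPS1*, *UGE3* and *AGAL3*, with a horizontal line for the mean and a bar for ± 1 SD (n = 3). *STS* is at 102 or less in *rdo2-1* and *rdo3*, *MIPS1* is at 480 or less in *hub1-2*, and *AGAL3* lies between 1478 and 1881 in all genotypes.

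The substrates of galactinol synthase were represented by few genes. *MIPS1*, which encodes the enzyme of the first step of *myo*-inositol synthesis, fell in *hub1-2*, with 480, 306 and 207 in *hub1-2*, 676, 521 and 949 in *rdo2-1*, 567, 792 and 686 in *rdo3*, and 913, 961 and 829.6 in L*er*. The *hub1-2* arrays were the lowest 3 of the 12 (difference to L*er* -1.53, standard error 0.26, limma adjusted p = 0.0047). The call held without *hub1-2* replicate 1 and was lost when any other of the 6 arrays was left out, with adjusted p up to 0.019. *VTC4*, a phosphatase that releases *myo*-inositol and L-galactose, and *MIOX2*, which oxidizes *myo*-inositol, were not called by limma. CyberT called *MIOX2* higher in *hub1-2* than in L*er* (difference 0.96, limma adjusted p = 0.048, CyberT adjusted p = 0.0069). Its *rdo3* arrays also lay above all L*er* arrays, without a call (difference 1.32, limma adjusted p = 0.19).

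*UGE3*, an epimerase that interconverts UDP-glucose and UDP-galactose, rose in *hub1-2*. It had 433, 373 and 405 in *hub1-2*, 325, 417 and 148 in *rdo2-1*, 319, 369.9 and 363 in *rdo3*, and 199.9, 279.5 and 190.1 in L*er*. The *hub1-2* arrays lay above the L*er* arrays and overlapped those of *rdo2-1* (difference to L*er* 0.87, standard error 0.16, limma adjusted p = 0.0072). All *rdo3* arrays also lay above all L*er* arrays, without a call (difference 0.67, standard error 0.17, limma adjusted p = 0.19). The call of *UGE3* between *hub1-2* and L*er* held without L*er* replicate 2 and was lost when any other of the 6 arrays was left out. It held in 3 of 8 other settings, with adjusted p up to 0.045 over all settings. Its relative *UGE2* had 23.1, 19.9 and 19.9 in *hub1-2* and 14.6, 11.0 and 13.5 in L*er*. This difference was 0.69 (standard error 0.16, limma adjusted p = 0.015, CyberT adjusted p = 0.0037).

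Of the sucrose genes, *SUC2*, the phloem-loading sucrose transporter gene, fell in *hub1-2*. Its intensities were 1145, 1096 and 1069.9 in *hub1-2*, 1267, 1058 and 1364 in *rdo2-1*, 2169.6, 1854 and 1949 in *rdo3*, and 1773, 1400.5 and 1672 in L*er*. The difference between *hub1-2* and L*er* was -0.54 (standard error 0.11, limma adjusted p = 0.0081). With 1 array left out the call held only without L*er* replicate 2, with adjusted p up to 0.038 over all settings. All *rdo2-1* arrays of *SUC2* also lay below all L*er* arrays, without a call (difference -0.39, standard error 0.14, limma adjusted p = 0.15). They overlapped those of *hub1-2*. *SUC3*, another sucrose transporter gene, had 157, 180.3 and 184 in *hub1-2* and 118, 111 and 104 in L*er*. These arrays did not overlap (difference 0.64, standard error 0.14, limma adjusted p = 0.012, CyberT adjusted p = 0.0074).

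The beta-galactosidases, which take beta-linked galactose off cell wall polymers, had 5 measured genes. Between *hub1-2* and L*er*, limma called *BGAL3* lower and *BGAL16* higher, and CyberT called 3 lower and 1 higher. In this comparison limma called 9.44% of all kept probe sets and CyberT 17.0%. All but *BGAL16* are named only by the study's list of called genes, so these counts are not independent evidence. *BGAL3* fell in *hub1-2*, with 2327, 2354 and 2321 in *hub1-2* and 3418, 3509 and 3277 in L*er* (difference -0.54, standard error 0.07, limma adjusted p = 0.0012). It was called with each of the 6 arrays left out in turn, and the call was lost without the intensity trend. The *BGAL3* arrays of *rdo2-1* (mean 1955, difference to L*er* -0.82) and *rdo3* (mean 2595, difference to L*er* -0.39) also lay below all L*er* arrays, where limma did not call it. *BGAL8* averaged 58.3 ± 12.2 in *hub1-2* and 107 ± 22.2 in L*er* (SD, n = 3 each; difference -0.88, standard error 0.21, limma adjusted p = 0.017, CyberT adjusted p = 0.0023). *BGAL9* averaged 35.5 ± 5.11 in *hub1-2* and 60.2 ± 6.16 in L*er* (SD, n = 3 each; difference -0.77, standard error 0.17, limma adjusted p = 0.013, CyberT adjusted p = 0.0039). For both genes the 2 genotypes did not overlap, and both were named after their values were seen. The *rdo2-1* arrays also lay below all L*er* arrays for *BGAL8* (mean 35.2) and *BGAL9* (mean 39.9), while those of *rdo3* overlapped L*er*. *BGAL16* had 11.3, 11.3 and 12.3 in *hub1-2*, 5.79, 4.95 and 5.65 in *rdo2-1*, 6.88, 5.17 and 7.80 in *rdo3*, and 6.87, 6.53 and 6.73 in L*er* (difference between *hub1-2* and L*er* 0.79, standard error 0.11, limma adjusted p = 0.0018). All but 1 of these 12 values are under the median of their array, and the gene passed the filter only through *hub1-2*, so its calls are not read as a rise.

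Both measured regulators, *HSFA2*, a heat shock factor, and *DREB2A*, a factor of drought and heat responses, are known from plants that make more of them to raise galactinol synthase transcripts. *HSFA2* had 161, 146 and 118 in *hub1-2*, 40.2, 41.5 and 22.1 in *rdo2-1*, 104, 30.7 and 61.7 in *rdo3*, and 109, 121 and 46 in L*er*. *DREB2A* had 725, 667 and 642 in *hub1-2*, 336, 372 and 304 in *rdo2-1*, 428, 503 and 537 in *rdo3*, and 452, 503 and 282 in L*er*. The *hub1-2* values of *DREB2A* were the 3 highest, while those of *HSFA2* overlapped L*er*, and limma called neither gene between *hub1-2* and L*er*. The differences were 0.74 for *HSFA2* (standard error 0.34, limma adjusted p = 0.15, CyberT adjusted p = 0.037) and 0.76 for *DREB2A* (standard error 0.20, limma adjusted p = 0.027), which CyberT called (adjusted p = 0.0021).

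**Figure D4:**
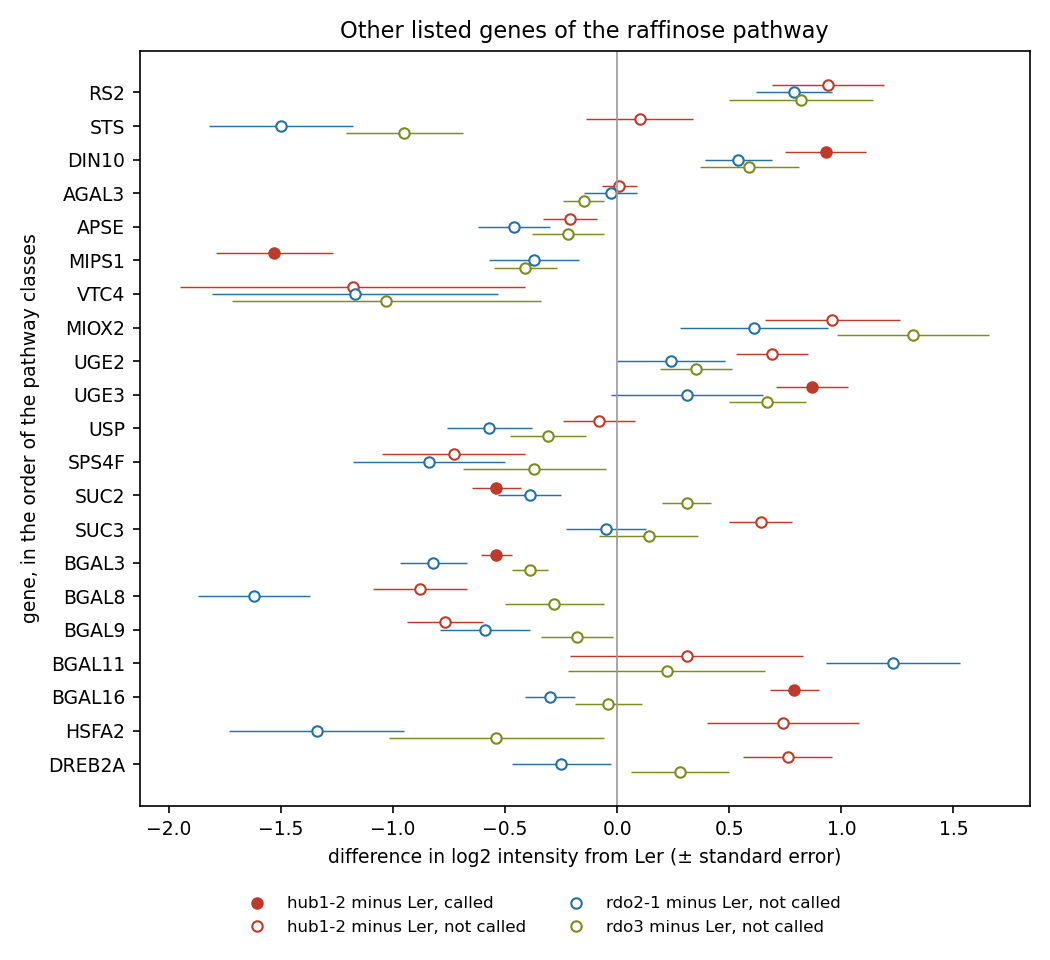
Differences in log2 intensity from L*er* for the 21 other listed genes with a named probe set, with bars for ± 1 standard error and filled points for calls by limma. Filled points appear for *hub1-2* only, for *DIN10*, *UGE3* and *BGAL16* above 0 and *MIPS1*, *SUC2* and *BGAL3* below 0, and each of them was called at an adjusted p under 0.01. *BGAL16* lies near background.

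Set directly against *rdo2-1*, *hub1-2* siliques had 5 of the 21 genes called higher and 0 lower by limma, which called 19.5% of all kept probe sets, 11.9% higher and 7.64% lower. That split turned round with arrays centred on their medians, at 1197 higher and 1602 lower in place of 1747 and 1120, while the count of listed genes stayed at 5. The call of *SUC3* was lost with this centring, so the 5 called then were not all the same genes. Without centring, the 5 were *STS* (difference 1.60, standard error 0.28, limma adjusted p = 0.0025), *HSFA2* (2.08, standard error 0.26, 0.00057), *DREB2A* (1.01, standard error 0.13, 0.0006), *BGAL16* (1.09, standard error 0.12, 0.00032) and *SUC3* (0.70, standard error 0.15, 0.0075). *BGAL16*, kept only through *hub1-2* and near background, leaves 4 of 20 when set aside. CyberT also called *MIPS1* lower (-1.15, limma standard error 0.30, CyberT adjusted p = 0.00047, limma adjusted p = 0.016). The calls of *HSFA2* and *DREB2A* held with each of the 6 arrays left out, that of *STS* was lost without *hub1-2* replicate 3 or *rdo2-1* replicate 1, and that of *SUC3* held only without *rdo2-1* replicate 2. Without *hub1-2* replicate 3 or *rdo2-1* replicate 1, the count was 3, while the 2867 calls over all kept probe sets went down to 1120 and 1615. The median difference was 0.35 over the 21 genes and 0.02 over all kept probe sets.

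Set against *rdo3*, *hub1-2* siliques had *STS* (difference 1.05, standard error 0.20, limma adjusted p = 0.0076) and *BGAL16* (0.83, standard error 0.15, 0.0066) higher and *SUC2* (-0.85, standard error 0.08, 0.00041) lower, which is 3 of 21 against 11.2% of all kept probe sets, 6.48% higher and 4.73% lower (950 and 694, or 740 and 769 with arrays centred on their medians). Without *BGAL16*, kept only through *hub1-2* and near background, it is 2 of 20. *SUC2* was called with each of the 6 arrays left out in turn, and *STS* and *BGAL16* only without *rdo3* replicate 2. The count was 1 without *hub1-2* replicate 2, *hub1-2* replicate 3 or *rdo3* replicate 3, and 4 without *rdo3* replicate 2, while the 1644 calls over all kept probe sets became 642, 619, 518 and 2337 without these arrays.

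In *rdo2-1* against L*er*, limma called 0 of the 21 genes. At an unadjusted p under 0.05 it counted 13, against 21.4% of all kept probe sets, and the median difference was -0.37, against -0.01 over all kept probe sets. Without L*er* replicate 2 or *rdo2-1* replicate 3 limma called 1. It called 2 in a fit of all 12 arrays and 3 with a block for replicate number. Over all kept probe sets the 12-array fit called 269 and the block 185, in place of 21. CyberT called 4, which were named after their values were seen, against 1.63% of all kept probe sets higher and 1.75% lower. All 4, like 15 of the 21 genes, take their names from the study's list of called genes. The counts given here are therefore not independent evidence. *STS* (-1.50, standard error 0.32, CyberT adjusted p = 0.0015), *BGAL3* (-0.82, standard error 0.15, 0.0013) and *BGAL8* (-1.62, standard error 0.25, 0.00029) were lower in *rdo2-1*. *BGAL11* was higher (1.23, standard error 0.30, CyberT adjusted p = 0.0082). These standard errors are those of limma. In *rdo3* against L*er*, limma and CyberT, which called 0.0205% and 1.01% of all kept probe sets, each called 0 of the 21 genes. In limma 8 had an unadjusted p under 0.05, against 10.5% of all kept probe sets, with a median of -0.15, against -0.01 over all kept probe sets. Between *rdo3* and *rdo2-1* limma called 0, with 5 at an unadjusted p under 0.05, against 20.4% of all kept probe sets, and CyberT called 2, *SUC2* (0.70, CyberT adjusted p = 0.0018) and *BGAL8* (1.33, 0.002), both higher in *rdo3*, as were 1.60% of all kept probe sets, and named after their values were seen.

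The probe sets whose log2 intensities followed *GolS1* most closely over the 12 arrays were sought among 9204 others with 1 gene name. The highest Pearson correlations were those of AT3G43230 (r = 0.978), AT1G31790 (0.970), *ROC7*, a cyclophilin gene (0.966), AT1G27150 (0.965) and *AL5*, an Alfin-like gene (0.962). Once each genotype's mean was subtracted, these correlations were 0.85 to 0.95, over the same arrays that chose the probe sets. AT3G43230 averaged 1514 ± 105 in *hub1-2*, 1081 ± 139.7 in *rdo2-1*, 1217 ± 57.4 in *rdo3* and 1133 ± 80.3 in L*er* (SD, n = 3 each). In all, 121 of the 9204, or 1.31%, had r of 0.9 or more.

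For *AGAL1* the 5 closest were *SWEET1*, a sugar transporter gene (r = 0.986), *IMB1*, an imbibition-inducible bromodomain gene (0.978), AT1G02370 (0.978), AT4G15390 (0.978) and AT1G68240 (0.977). Here r was 0.72 for *SWEET1* and 0.03 to 0.45 for the other 4 after subtraction of the genotype means, so for these 4 r rests on the gap between *hub1-2* and the other genotypes. *SWEET1* had 149 ± 36.1 in *hub1-2*, 25.2 ± 4.14 in *rdo2-1*, 27.3 ± 1.57 in *rdo3* and 27.3 ± 5.43 in L*er* (SD, n = 3 each). In all, 230 of 9204, or 2.50%, had r of 0.9 or more. These are descriptions over 12 arrays that share 4 genotypes.

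**Figure D5:**
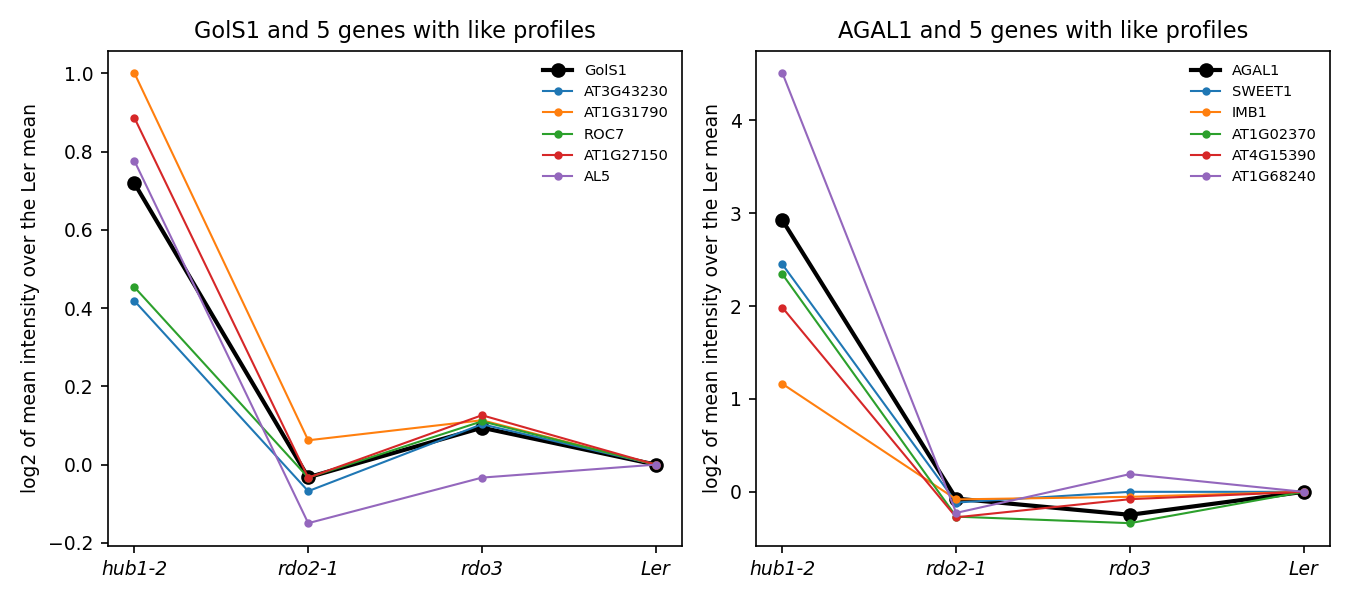
log2 of the mean intensity in each genotype over the mean in L*er* for *GolS1* and *AGAL1* and the 5 probe sets with the highest Pearson correlation to each over the 12 arrays; lines join the points of 1 gene. In every line *hub1-2* is the highest genotype, and *rdo2-1*, *rdo3* and L*er* lie closer together, as follows from a choice by likeness to genes that are high in *hub1-2*.

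Of the 2 nearest genes on either side of each gene, 1 near *GolS1* and 1 near *AGAL1* had a kept probe set with a name. AT2G47200, the second gene after *GolS1*, had 32.9, 50.8 and 55.2 in *hub1-2* and 30.4, 45.1 and 58.4 in L*er*, with arrays that overlapped (difference 0.07, standard error 0.28, limma adjusted p = 0.89). AT5G08390, the second gene after *AGAL1*, had 8.58, 10.3 and 11.6 in *hub1-2* and 18.8, 12.0 and 12.5 in L*er* (difference -0.48, standard error 0.20, limma adjusted p = 0.11). Its *hub1-2* values are all under the median of their array, so signal near background limits this reading. Neither neighbour was called in any of the 6 pairs of genotypes.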

How the data were processed

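The authors made the deposited intensities with GC-RMA (background correction, normalization and summarization) in Expressionist Pro 5.1; they are linear, above 0, and were turned into log2 values without a pseudocount. The sources used here do not give the set of arrays that was normalized jointly. No other column of values was left unused. Control probe sets were left out, which left 22746, and in place of the study's detection filter a second-highest intensity of at least 7.5 over the 9 arrays of *hub1-2*, *rdo2-1* and L*er* was required, which kept 14666.

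limma 3.58.1 in R 4.3.3 (lmFit and eBayes with an intensity trend) compared pairs of genotypes over 6 arrays, with Benjamini-Hochberg adjustment over the kept probe sets and calls under 0.01. The limma step was tested on simulated data. CyberT was run with window 101 and prior weight 10. All standard errors and 95% intervals are those of limma. With 3 arrays per genotype, their number limits the precision.

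Probe sets were named from the array annotation where it gives 1 gene (13513), or from the study's list of called genes (1125 more); 503 match several genes and 7605 have no name here. The annotation came without a genome build, so no coordinates are given. *RDO2* is not analysed here.

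The genes, lists and tests were chosen with earlier results of these data known. Named are *GolS1* and *AGAL1*, listed pathway genes called by limma in any pair or in the galactinol synthase, raffinose and stachyose synthase or alpha-galactosidase classes, the 5 closest profiles of each and the nearest genes on the chromosome. Filters, prior spread, arrays in the fit, scaling, CyberT, a block for replicate number and each array left out were alternatives. Python 3.11.15, pandas 2.3.3, NumPy 2.4.6 and matplotlib 3.10.9 made the tables and plots.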

Additional observations from a re-analysis of the deposited data

Results flagged for a closer look

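In 8 cases among the listed genes, *hub1-2* and another mutant differed from each other by the direct limma test, so that their differences from L*er* were unequal. Against *rdo2-1* these were *STS* (1.60), *SUC3* (0.70), *BGAL16* (1.09), *HSFA2* (2.08) and *DREB2A* (1.01) on the log2 scale. Against *rdo3* they were *STS* (1.05), *SUC2* (-0.85) and *BGAL16* (0.83). Of all kept probe sets, limma called 19.5% between *hub1-2* and *rdo2-1* and 11.2% between *hub1-2* and *rdo3*. With 1 array left out, *SUC3* against *rdo2-1* was called in 1 of 6 fits. The same held for *STS* and *BGAL16* against *rdo3*. *BGAL16* passed the filter on low values only through *hub1-2*, and its values lie near or under the array median, so these calls of it are not read as differences. For *AGAL1*, all *hub1-2* arrays lay above and all *rdo3* arrays below all L*er* arrays, a gap of 3.13 on the log2 scale between *hub1-2* and *rdo3*. This difference was not tested, because the *hub1-2* values chose the gene, and the *rdo3* and L*er* values are under the array median.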

How the results depend on the processing

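Only scaling and left-out arrays can move a difference of means. Under these, 45 of the 48 tested differences of *GolS1* and *AGAL1* kept their direction, and none of these 48 was called by limma. The differences of *hub1-2* from the other genotypes, which chose the genes, ranged from 0.56 to 0.91 for *GolS1* and from 2.63 to 3.35 for *AGAL1*. The 3 that turned were small *GolS1* differences: *rdo2-1* minus L*er* (-0.06) was 0.01 with arrays centred on their medians and -0.19 to 0.16 with 1 array left out, and *rdo3* minus *rdo2-1* (0.16) was -0.06 to 0.29. Both turned without *rdo2-1* replicate 3. Centring moved all differences of *hub1-2* from *rdo2-1* by 0.12, and the *GolS1* difference there was 0.66.

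Of 84 counts of called pathway genes, 63 stayed within 1.5 times the first value. Between *hub1-2* and L*er* the count was 6, and it was 3 without the intensity trend, 13 by CyberT and 1 to 4 with 1 array left out. Between *rdo2-1* and L*er* it was 0, 2 in a fit of all 12 arrays, 4 by CyberT and 0 to 1 with 1 array left out. Between *hub1-2* and *rdo2-1* it was 5, and 3 to 5 with 1 array left out. Between *hub1-2* and *rdo3* it was 3, 6 by CyberT and 1 to 4 with 1 array left out. Between *rdo3* and *rdo2-1* it was 0, and 2 in a fit of all 12 arrays and by CyberT.

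Samples of the same number correlated in their deviations from the genotype means at -0.184 to 0.387, highest between *rdo2-1* and L*er* replicates 3. Samples of different numbers were not set beside them, so whether the numbers pair the samples was not settled. With the replicate block the pathway count was 3 between *hub1-2* and L*er*, 3 between *rdo2-1* and L*er* and 5 between *hub1-2* and *rdo2-1*. Over all kept probe sets, limma called 870 between *hub1-2* and L*er* with the block (1384 without it), 185 between *rdo2-1* and L*er* (21), 0 between *rdo3* and L*er* (3), 971 between *hub1-2* and *rdo3* (1644) and 87 between *rdo3* and *rdo2-1* (37). CyberT called 2494 between *hub1-2* and L*er*, 496 between *rdo2-1* and L*er*, 148 between *rdo3* and L*er*, 2755 between *hub1-2* and *rdo3* and 412 between *rdo3* and *rdo2-1*. With all 12 arrays in 1 fit, limma called 269 between *rdo2-1* and L*er*, 14 between *rdo3* and L*er* and 232 between *rdo3* and *rdo2-1*. Median centring turned the split between *hub1-2* and *rdo2-1* to 1197 higher and 1602 lower (1747 and 1120 without it), that between *hub1-2* and L*er* to 662 and 687 (809 and 575), that between *hub1-2* and *rdo3* to 740 and 769 (950 and 694), and that between *rdo2-1* and L*er* to 28 and 13 (12 and 9). The causes were not tested. Signal near background limits *AGAL1* and *BGAL16*.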
